A study of Mus musculus with 183 samples.

Results

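After 120 min without transcription, the replication-dependent histone mRNAs of mouse embryonic stem cells (mESCs) that lack AVEN and had been induced to lose SKIV2L stood at a median of 13.9% of their level in mock-treated cells, whereas the median over all genes was 72.3%. The data behind this statement are the 12 libraries of 1 cell clone, 7E, on day 4 of 4-hydroxytamoxifen (4OHT). They are 3 libraries of a mock treatment (0 min) and 3 each at 120, 240 and 360 min of actinomycin D. They were chosen by clone, day and time alone, out of 47 libraries of the RNA half-life experiment and 183 samples of the series. The question asked of them was how the loss of each mRNA was spread over time, early against late, within this group.

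By the labels the cells are Rosa26Cre-ERT2/BirA-V6 at Rosa26, Skiv2l3xFLAG-Avi/3xFLAG-Avi at Skiv2l and Aven-/-, so both Skiv2l alleles carry a tag and Aven, by the methods, was deleted with Cas9. The study's list of lines writes BirA-V5 where the labels write BirA-V6. The cells express CreERT2 and BirA from Rosa26, and the labels of other libraries of this clone, and the methods, add loxP sites around a stretch of Skiv2l exons. All 12 libraries had 0.1 µM 4OHT for 4 days, which activates CreERT2. Mock cells had DMSO for 6 hr in place of actinomycin D. Other groups appear here only where the course is set against them: the same clone at day 0, without 4OHT, and clone 5F, which is Rosa26Cre-ERT2/- and Skiv2lfl/fl and has AVEN, in libraries labelled day 4, with 12 libraries each. Levels of clone 5F at day 0, also without 4OHT, are quoted in places. Clone 7E is 1 clone, and the study calls the replicates technical, so no p-value below measures the spread between independent cultures or clones. Each measures the spread that the scaling left between these libraries.

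SKIV2L is the helicase of the Ski complex, which feeds mRNAs to the cytoplasmic exosome for 3′–5′ decay, and AVEN is an RNA-binding protein that associates with the Ski complex. Actinomycin D blocks transcription, so that an mRNA level afterwards falls at the rate at which the mRNA is degraded. Under a single decay rate the log2 level falls in a straight line with time. Histone mRNAs of the replication-dependent clusters end in a stem-loop instead of a poly(A) tail and are known for rapid decay when DNA synthesis stops. mRNAs of immediate early genes are known for AU-rich elements in their 3′ UTRs and for short half-lives.

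Total gene counts ranged from 27093346 to 31175268 per library. ERCC RNA, a mixture of synthetic transcripts added at lysis, allowed mRNA to be counted per spike-in RNA. Skiv2l had 10.5 to 13.9 CPM (counts scaled to the same total in each library) in the 12 libraries, against 31.2 to 36.1 CPM in the mock libraries of the same clone at day 0 and 132 to 153 CPM in the mock libraries of clone 5F labelled day 4, where the level was not below that of clone 5F at day 0 (147 to 148 CPM). Gene counts do not separate the deleted exons from the others. For Aven the 12 libraries held 0.760 to 2.02 CPM, against 32.1 to 35.4 CPM in the mock libraries of clone 5F labelled day 4. All 8 markers of embryonic stem cells were detected, with a summed level of 2622 to 2707 CPM in mock. The 18 markers of endoderm, trophoblast, mesoderm, neural cells and fibroblasts summed to 173.4 to 175.9 CPM in mock and to 57.5 to 63.0 CPM at 360 min, mostly Tfap2c and Pax6, and 10 of them averaged under 1 CPM. Among these, the trophoblast marker Elf5, the mesoderm marker Mesp1 and the neural marker Neurog2 stayed under 0.1 CPM in every library.

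The ratio of mRNA counts to ERCC counts fell throughout the course. In mock it was 143.7, 142.5 and 145.0, which is less than the 294 to 342 of the mock libraries of the other 3 groups, so the mock level per spike-in RNA differed between groups. As a percentage of the mock median, the ratio was 61.7, 76.7 and 78.4 at 120 min, 66.2, 57.0 and 62.0 at 240 min, and 48.3, 47.8 and 36.7 at 360 min. Replicate 1 at 120 min and replicate 3 at 360 min lay below the others of their time. These libraries also had the lowest shares of mitochondrial rRNA, 0.234% and 0.370% of all gene counts, against 0.680% to 3.04% in the other 10. Whether cell number, lysis or spike-in amount set these ratios was not tested. In bulk samples, fewer cells and less RNA per cell cannot be told apart.

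**Figure D1:**
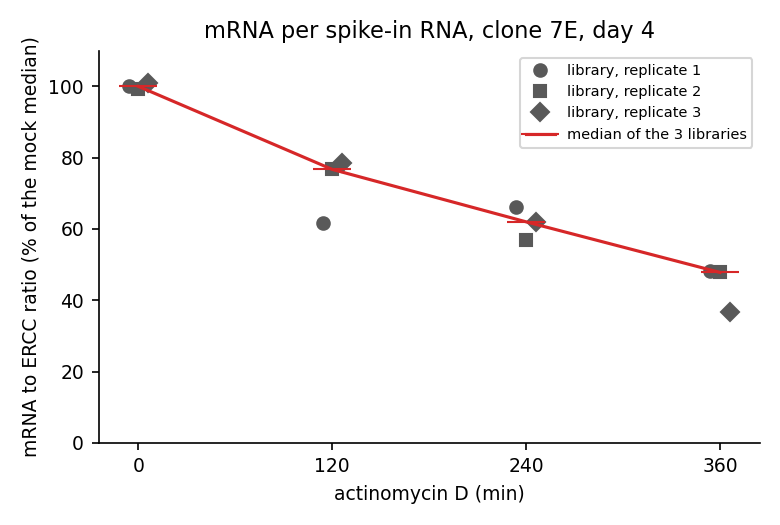
Ratio of total mRNA counts to ERCC counts in each of the 12 libraries, as a percentage of the mock median (y), against minutes of actinomycin D (x). Points are libraries, and the line joins the medians of 3 libraries per time: 100, 76.7, 62.0 and 47.8. Replicate 1 at 120 min (61.7) and replicate 3 at 360 min (36.7) lie below the others of their time.

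Normalized counts below were scaled between the replicates of a time and then lowered for all genes alike by the median fall of that time's ratio against mock. On this scale the median gene stood at 71.2% ± 1.93 (SD, n = 3 libraries) of mock at 120 min, 56.9% ± 0.51 at 240 min and 43.1% ± 0.84 at 360 min. The libraries of a time share 1 spike-in factor here. The spread of their ERCC ratios thus enters neither these SDs nor the p-values of the main setting. With each library scaled by its own ERCC ratio the values were close but the spread was wider, at 67.4% ± 9.67, 58.7% ± 4.77 and 42.2% ± 6.86. A single exponential gave a median half-life of 312.7 min.

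By 120 min, 10148 of the 16702 genes tested (60.8%) were lower than in mock and 49 (0.293%) were higher (edgeR's quasi-likelihood test, adjusted p under 0.05). At 240 min, 13714 genes (82.1%) were lower and 10 (0.0599%) higher, and at 360 min 15423 (92.3%) were lower and 7 (0.0419%) higher. Among protein-coding genes with at least 500 normalized counts in mock and a call at 360 min, the levels that fell least were those of Zranb3, a DNA translocase that remodels replication forks, with 89.2% of mock left, Mapk3, the kinase ERK1, with 86.1%, Samd1, a DNA-binding protein, with 85.1%, Ahi1, a ciliary protein, with 84.9%, and P4ha1, a collagen prolyl hydroxylase, with 84.4%. Zranb3 had 1153, 1142 and 1262 normalized counts in mock and 1032, 1032 and 1108 at 360 min, groups that lay close together without overlap. Relative to the typical gene (TMM scaling) the log2 changes of these 5 genes at 360 min were 0.99 to 1.07, so their fall was seen on the spike-in scale only. Without mock replicate 3 the calls of Zranb3 (log2 change -0.08), Mapk3 (-0.14), Samd1 (-0.15) and Ahi1 (-0.16) were lost. With totals equalised between times those of Zranb3, Mapk3, Samd1 and P4ha1 were lost, and with each library's own ERCC ratio those of Zranb3 and Mapk3. Zranb3 lost its call also with no filter on low counts. Mapk3 lost its call also without mock replicate 1 (-0.23) or replicate 3 at 360 min (-0.21).

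The lowest levels at 360 min belonged, by the same rule, to Hist2h3b (0.156% of mock), Hist1h2ah (0.568%), Hist2h2bb (0.739%), Hist1h2ag (0.746%) and Ccn1 (0.833%), 4 histone genes and a secreted matrix protein of the early growth response.

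To describe shape, the log2 change per hour from 120 to 360 min was subtracted from that from 0 to 120 min. A negative difference means that the loss was faster early (early-weighted), and a positive one that it was faster late (late-weighted). The 120 min libraries, and their spike-in factor, enter both steps with opposite sign, so an error in that factor moves all genes alike. Over all genes the median rate was -0.23 log2 per hour in the first step and -0.18 in the second. In edgeR's test 3467 genes (20.8%) were early-weighted and 869 (5.2%) late-weighted, while with TMM scaling, which sets the typical gene to no change, the split was 2798 (16.8%) to 1977 (11.8%). With factors taken over all half-life libraries, under which the median log2 change of all genes by 120 min was -0.77 in place of -0.47, the split was 8719 to 60, and with each library's own ERCC ratio 84 genes were late-weighted. The median contrast over all genes was -0.05, and -0.24 with factors over all half-life libraries. Without the 2 libraries of low ratio the counts were 3217 and 949. The late-weighted count depended on single libraries: it was 457 and 427 without mock replicates 1 and 2, 543, 75 and 188 without replicates 1, 2 and 3 at 120 min, and 1518 without replicate 1 and 1544 without replicate 2 at 360 min. Under every one of 5 scalings, 2295 genes (13.7%) were early-weighted and 44 (0.263%) late-weighted.

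Histone mRNAs were, of the lists described, the one with the steepest first step. Of 67 replication-dependent histone genes, 59 had enough counts to be tested, and 58 of them were lower at 120 min and 59 at 240 and 360 min. Of all genes 60.8%, 82.1% and 92.3% were lower at these times. The list's median level was 13.9% of mock at 120 min, 6.69% at 240 min and 3.99% at 360 min. Its median rate was -1.43 log2 per hour in the first 120 min and -0.45 afterwards. The loss was early-weighted in 53 of the 59 genes, late-weighted in 0, and early-weighted under every one of the 5 scalings in 52 (88.1%). The shares of all genes were 20.8%, 5.2% and 13.7%. Leaving out 1 library at a time gave 51 to 54 early-weighted histone genes and 0 or 1 late-weighted.

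Replication-dependent histone mRNAs carry a stem-loop shortly after the stop codon, to which the stem-loop binding protein binds. The sites below, read from the GRCm38 genome with RefSeq's sequence, are printed for histone genes named in the text. Capitals mark the core that matched the motif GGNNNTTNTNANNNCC, searched on the gene's strand in the 150 bases after the stop codon. They belong to an H3 gene (chr3:96269130-96269155, plus strand), an H2A gene (chr13:22042478-22042503, minus strand) and 2 H1 genes (chr13:21779832-21779857, minus strand, and chr13:23764387-23764412, plus strand), in that order.
Hist2h3b: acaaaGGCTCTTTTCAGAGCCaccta
Hist1h2ag: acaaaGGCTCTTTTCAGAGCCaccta
Hist1h1b: ccaaaGGCTCTTTTCAGAGCCaccta
Hist1h1a: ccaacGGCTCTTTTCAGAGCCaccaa
The motif was found in 56 of the 59 histone genes (94.9%) and in 0.628% of all 13852 tested genes with a stop codon. The core printed above was shared by 33 histone genes, whose level at 120 min ran from 0.635% to 52.8% of mock. Levels of single histone genes are uncertain for reasons of mapping given below. A match in these letters is a description and no measure of binding, and any link to the rate of decay was not tested.

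Hist2h3b, an H3 gene (ENSMUSG00000074403.2, chromosome 3, 96268654 to 96269141), had 1494, 1151 and 1341 normalized counts in mock, 7.52, 8.23 and 9.57 at 120 min, 3.14, 6.36 and 5.34 at 240 min, and 1.44, 2.93 and 1.85 at 360 min. On these counts no later library came near the mock libraries, and most of the loss was complete at 120 min. All counts after mock were between 1.44 and 9.57, near the floor, so the late rate was barely resolved. Of the 50-base words of Hist2h3b, 0% were absent from the transcripts of other genes, counting any that overlap its locus, so its level is uncertain. The log2 change was -7.29 ± 0.17 (SE) at 120 min (adjusted p = 3.23e-12, edgeR) and -9.27 ± 0.19 at 360 min. Its shape contrast of -3.15 log2 per hour was the most negative among protein-coding genes named by rule, followed by Hist1h2ag (-2.89), Hist1h3f (-2.34), Hist1h2bk (-2.27), Hist1h2ac (-2.22) and Hist1h4j (-2.13). Hist1h3f had 194.0, 204.2 and 193.7 normalized counts at 120 min, 90.5, 122.7 and 362.1 at 240 min and 184.3, 370.1 and 149.9 at 360 min. Its later libraries lay on both sides of those at 120 min, so no further fall could be resolved.

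The H1 genes fell less in the first step. Hist1h1b, an H1 linker histone gene (ENSMUSG00000058773.2, chromosome 13, 21779883 to 21780625), had 24430, 22550 and 22780 normalized counts in mock, 3860, 3765 and 4006 at 120 min, 1517, 1485 and 1546 at 240 min, and 604.2, 603.5 and 522.5 at 360 min. The 4 groups did not overlap. It lost 1.29 log2 per hour early and 0.69 late, an early-weighted course (contrast -0.60 ± 0.04 SE, adjusted p = 4.55e-07, edgeR).

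Hist1h1a, another H1 gene (ENSMUSG00000049539.3, chromosome 13, 23763666 to 23764406), had the highest mock level of the list, with 62790, 58480 and 57690 normalized counts. It had 34750, 29100 and 30590 at 120 min, 17530, 19800 and 19420 at 240 min, and 9303, 10280 and 10890 at 360 min. The groups did not overlap here either, but the loss was slower and even over time. Its level was 52.8% ± 4.91 of mock at 120 min and 17.0% ± 1.34 at 360 min (SD, n = 3), and the contrast of -0.05 ± 0.05 (SE) did not pass the test (adjusted p = 0.497, edgeR). With factors over all half-life libraries it was -0.24 and passed as early-weighted (adjusted p = 0.00205).

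By family, the median level at 120 min was 6.45% of mock for the 14 H2A genes, 6.70% for the 11 H3 genes, 13.8% for the 16 H2B genes, 21.9% for the 12 H4 genes and 32.2% for the 6 H1 genes. Early-weighted loss was called in 13 H2A, 11 H3, 14 H2B, 11 H4 and 4 H1 genes, beside 20.8% of all genes. The highest level, 85.2%, was that of Hist1h4n, an H4 gene with only 43.7 normalized counts in mock and the sole histone gene not lower at 120 min.

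**Figure D2:**
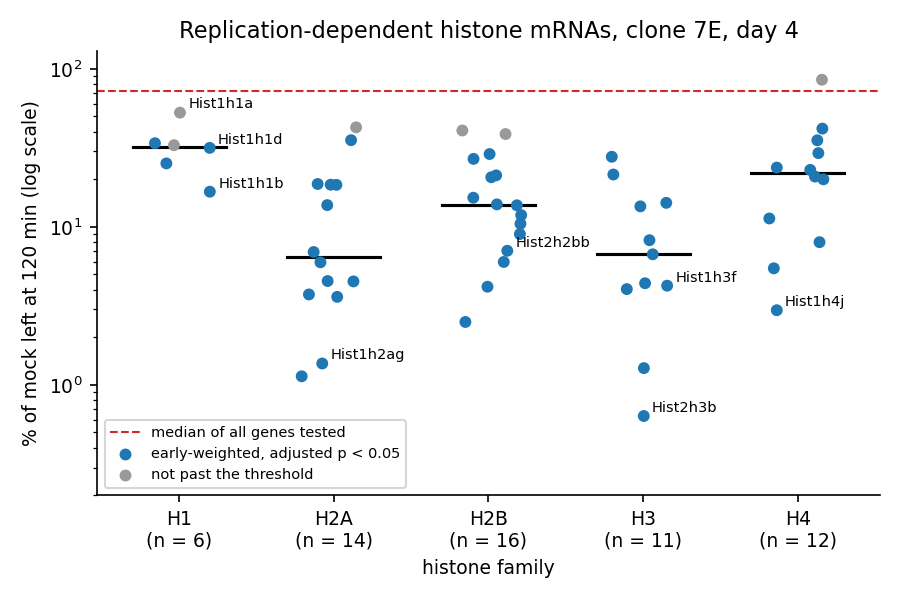
Level at 120 min of actinomycin D as a percentage of mock (y, log scale) for the 59 histone genes tested, grouped by family (x). Each point is a gene, blue where the loss was early-weighted (adjusted p under 0.05) and grey otherwise. Black bars are family medians (H1 32.2%, H2A 6.45%, H2B 13.8%, H3 6.70%, H4 21.9%), and the dashed line is the median of all genes tested (72.3%).

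Single histone genes are uncertain because they are near copies of one another and only reads with 1 mapping position were counted. The share of a gene's 50-base words that no transcript of another gene holds was 0% for Hist2h3b and Hist2h2bb, 21.1% for Hist1h2ag, and 100% for Hist1h1a and Hist1h1b. Words shared with a gene that overlaps the same locus, on either strand, count as shared too. Hist2h3b and Hist2h2bb still had mean mock counts of 1328 and 16070. The share is thus no direct measure of how many reads mapped to 1 position. The genes that fell most were mostly among those with few such words. Across the 59 genes Spearman's correlation of this share with the level at 120 min was 0.485, given as a description, since all points share the same libraries. The 13 genes with at least 80% of such words still had a median of 21.2% of mock at 120 min, with a range of 3.6% to 52.8%, and the other 46 had a median of 12.4%.

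Immediate early and feedback genes followed the same early-weighted course. All 39 tested genes of this list were lower at each of the 3 times, beside 60.8%, 82.1% and 92.3% of all genes. Of these, 33 were early-weighted and 29 (74.4%) were so under every scaling, beside 20.8% and 13.7% of all genes. The list's median level was 17.6% of mock at 120 min and 5.44% at 360 min. AU-rich sites of 3 such genes are printed because this class is known for them, with the motif TATTTAT in capitals. They were read on the gene's strand from Gencode transcript sequences, with GRCm38 positions. The sites are those of Ccn1 (chr3:145647095-145647119, minus strand), Spry2 (chr14:105892094-105892118, minus strand) and Klf6 (chr13:5868492-5868516, plus strand).
Ccn1: atgttttttTATTTATcaaagtgta
Spry2: tgtaaagaaTATTTATttgaagttt
Klf6: tacgtctctTATTTATgccttgagg
The motif stood in the 3′ UTR of 24 of the 39 genes (61.5%) and of 27.2% of all 13792 tested genes with an annotated 3′ UTR. Among early-weighted genes other than histones it was found in 38% (median UTR of 1282 nt), and among late-weighted genes in 18.9% (848 nt). Longer UTRs hold more matches by length alone: per kb of UTR the numbers were 0.359, 0.24 and, over all genes, 0.289. Mycn, which was early-weighted too, held no match in its 3′ UTR.

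Ccn1, a secreted matrix protein, had 4644, 4341 and 4275 normalized counts in mock, 196.2, 202.7 and 274.3 at 120 min, 97.4, 86.5 and 73.0 at 240 min, and 29.7, 40.5 and 40.3 at 360 min. Each later group lay wholly below the one before it. It lost 2.15 log2 per hour early and 0.65 late (contrast -1.50 ± 0.09 SE, adjusted p = 1.33e-07, edgeR).

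Spry2, an inhibitor of receptor tyrosine kinase signalling, had 6995, 7110 and 7876 normalized counts in mock, 842.1, 1021 and 1064 at 120 min, 480.0, 392.9 and 429.2 at 240 min, and 382.1, 352.0 and 321.6 at 360 min. Little was lost after 240 min, and the contrast was -1.09 ± 0.07. Klf6, a zinc finger transcription factor, was at 20.1% of mock at 120 min and 4.28% at 360 min (contrast -0.60 ± 0.07), and the transcription factor Mycn at 34.3% and 7.95% (-0.25 ± 0.06). Mycn lost its call with each library's own ERCC ratio (-0.29, adjusted p = 0.108). Spred1, a further ERK pathway inhibitor, did not pass the test (56.8% and 20.8%, contrast -0.05 ± 0.04, adjusted p = 0.454), but did so as early-weighted without replicate 2 at 120 min (-0.16, adjusted p = 0.0306) and with factors over all half-life libraries (-0.24, adjusted p = 0.000368).

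mRNAs named Zfp, many of which encode KRAB zinc finger repressors, formed the largest early-weighted list. All-gene shares were 60.8% lower at 120 min, 20.8% early-weighted (13.7% under every scaling) and 5.2% late-weighted. Of the 363 Zfp mRNAs tested, 350 were lower at 120 min, 263 were early-weighted, 230 (63.4%) under every scaling, and 2 were late-weighted. Their median level was 34.7% of mock at 120 min and 14.5% at 360 min. Without the 2 libraries of low ratio 270 were early-weighted. The 4 with the highest mock level had contrasts that depended on the scaling. Those of Zfp568, a KRAB zinc finger gene, Zfp106, Zfp207 and the pluripotency gene Zfp42 were between -0.04 and 0.07 and did not pass the test. With factors over all half-life libraries all 4 passed as early-weighted (-0.12 to -0.23), and with TMM Zfp568 passed as late-weighted (0.12), as it did without replicate 1 (0.11) or 2 (0.10) at 360 min and with a late step of 240 to 360 min (0.12). Zfp106 passed as late-weighted without the 2 libraries of low ratio (0.11). Zfp42 still fell to 49.8% of mock at 120 min and 14.0% at 360 min, at nearly the same rate in both steps.

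Host genes of small nucleolar RNAs, whose spliced transcripts are known substrates of nonsense-mediated decay, were early-weighted in 10 of 18 and late-weighted in 0. All 10 (55.6%) were early-weighted under every scaling. Of all genes 20.8% were early-weighted, 13.7% under every scaling, and 5.2% late-weighted. Gas5 had 17320, 16500 and 14290 normalized counts in mock, 7081, 5879 and 5607 at 120 min, 4117, 4515 and 3923 at 240 min, and 2791, 2462 and 3076 at 360 min. Its groups did not overlap, and its rate fell from -0.69 to -0.29 log2 per hour (contrast -0.40 ± 0.07 SE, adjusted p = 0.000853, edgeR). Snhg5 (contrast -0.49 ± 0.08) and Zfas1 (-0.40 ± 0.06) were called as well, and Snhg1 was not (-0.22 ± 0.08, adjusted p = 0.0746). Without replicate 1 at 120 min Snhg1 passed the test (-0.33, adjusted p = 0.0065), as it did with own ERCC ratios and with factors over all half-life libraries. With an early step of 0 to 240 min the calls of Gas5 (-0.19) and Snhg5 (-0.21) were lost.

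Of the 7 mitochondrially encoded genes tested, 6 were lower at 120 min, beside 60.8% of all genes. Early-weighted were 2, mt-Nd2 and mt-Nd5, beside 20.8% of all genes, and 1 was so under every scaling. mt-Nd2, a subunit of respiratory complex I, had 3588, 4455 and 4336 normalized counts in mock, 391.0, 647.1 and 716.8 at 120 min, 493.2, 324.8 and 379.3 at 240 min, and 303.5, 283.2 and 196.7 at 360 min. Its lowest libraries at 120, 240 and 360 min were those with the lowest share of mitochondrial rRNA at each time, and the part of that in the result was not tested. The 120 and 240 min libraries overlapped, and the contrast was -1.12 ± 0.15 (SE). mt-Co1, a subunit of cytochrome c oxidase, was at 73.7% of mock at 120 min and 39.3% at 360 min, with a contrast of 0.01 ± 0.05 that did not pass the test, and of -0.18 that passed with factors over all half-life libraries.

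Late-weighted courses were rarer and smaller. By rule, 6 protein-coding genes with at least 500 normalized counts in mock were named: Insig1, Nr1d2, Msmo1, Mt1, Mgea5 and Gin1. Insig1, which holds the sterol sensor SCAP in the endoplasmic reticulum, had 669.2, 614.8 and 588.7 normalized counts in mock, 930.1, 876.0 and 778.2 at 120 min, 585.0, 578.5 and 579.4 at 240 min, and 278.2, 283.7 and 289.7 at 360 min. All 120 min libraries lay above all mock libraries, and the 240 min libraries just below them. The log2 change at 120 min was 0.47 ± 0.08 (SE, adjusted p = 0.000102, edgeR) and at 360 min -1.14 ± 0.08, so that the contrast was 0.63 ± 0.05. Relative to the typical gene (TMM) the contrast was 0.68.

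Nr1d2, a nuclear receptor of the circadian clock, had 1207, 1297 and 1201 normalized counts in mock, 1114, 1000 and 987.8 at 120 min, 604.5, 528.3 and 509.9 at 240 min, and 213.0, 185.5 and 213.3 at 360 min. It lost 0.13 log2 per hour early and 0.59 late (contrast 0.46 ± 0.05, adjusted p = 3.75e-05). Mt1, a metal-binding metallothionein, had 85.3% ± 1.87 of mock left at 120 min and 20.9% ± 1.69 at 360 min (contrast 0.39 ± 0.05). Msmo1, an enzyme of cholesterol synthesis, had 106% ± 16.8 left at 120 min and 36.5% ± 5.10 at 360 min (0.43 ± 0.07).

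Mgea5, the enzyme that removes O-GlcNAc from proteins, kept its mock level until 120 min, with 8337, 8535 and 7578 normalized counts in mock and 8493, 8385 and 7821 at 120 min. It then fell to 5120, 5092 and 5074 at 240 min and 3075, 2814 and 3032 at 360 min (contrast 0.37 ± 0.04, adjusted p = 1.63e-05). Gin1 had a contrast of 0.37 ± 0.09, which lost its call without replicate 2 at 120 min (0.24, adjusted p = 0.125). The contrasts of the other 5 kept their direction and call with each library left out and under each scaling. Neither Msmo1 nor Mt1 held a TATTTAT in the 3′ UTR, whereas Insig1 held 2.

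**Figure D3:**
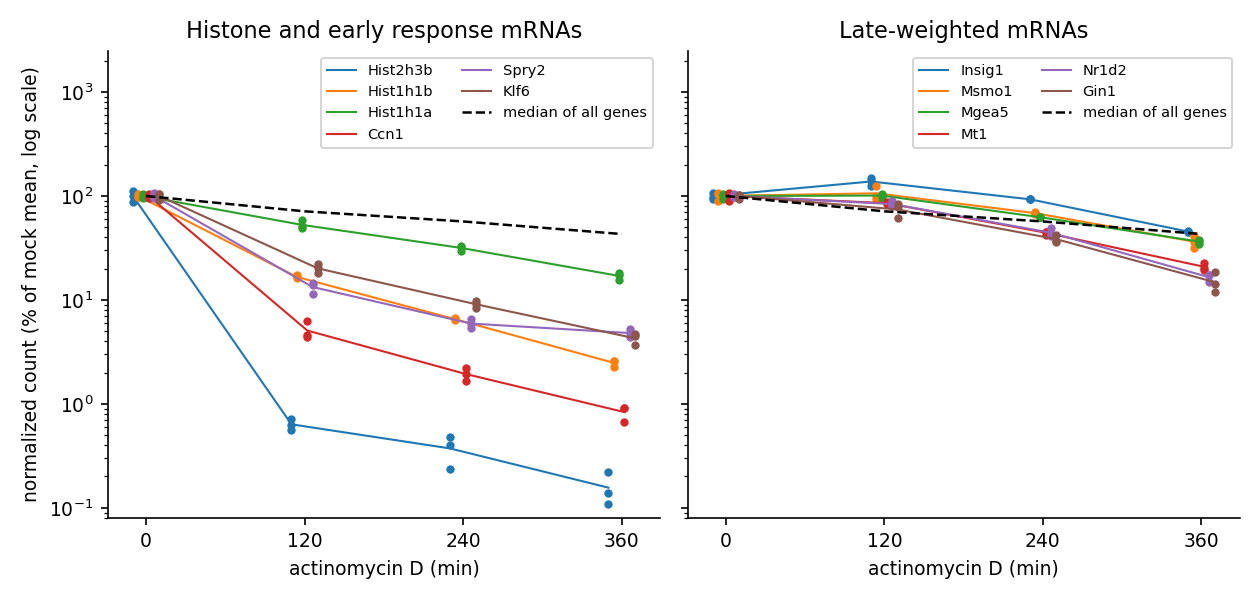
Normalized counts as a percentage of the mock mean (y, log scale) against minutes of actinomycin D (x) for 6 histone and early response mRNAs (left) and the 6 late-weighted mRNAs named by rule (right). Points are the 3 libraries per time, shifted sideways for legibility, lines join their means, and the dashed line is the median of all genes (71.2%, 56.9% and 43.1%). Hist2h3b is at 0.635% and Hist1h1a at 52.8% at 120 min, and Insig1 is at 138%.

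Lists of long-lived mRNAs held late-weighted calls of small size, and those calls did not survive every setting. They were 8 of 34 translation factors, 15 of 90 nuclear-encoded respiratory chain genes, 11 of 35 DNA replication genes and 10 of 26 cytoskeleton and adhesion genes, beside 5.2% of all genes. Examples are Eef1a1, a translation elongation factor (contrast 0.23), the replicative helicase subunits Mcm3 (0.16) and Mcm6 (0.19), the ATP synthase subunit Atp5b (0.14), lactate dehydrogenase Ldha (0.18), the ribosomal protein Rps3 (0.18) and beta-actin, Actb (0.11). In each of these 4 lists the count was 0 without replicate 2 at 120 min and 0 with size and spike-in factors taken over all half-life libraries. With those factors the contrasts of Mcm3, Mcm6, Atp5b, Ldha, Rps3 and Actb turned slightly negative, and that of Eef1a1 lost its call. With own ERCC ratios all 7 lost their calls, and those of Rps3 and Actb were lost without most single libraries.

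Eef1a1 had 99150, 95810 and 99030 normalized counts in mock, 110700, 97830 and 101400 at 120 min, 76210, 84210 and 79230 at 240 min, and 52550, 61050 and 69090 at 360 min. Mock and 120 min overlapped, and all 360 min libraries lay below all others. Its level was 62.1% of mock at 360 min, and median levels at 360 min were 54.7% for translation factors, 61.0% for the respiratory chain and 53.9% for the cytoskeleton list.

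The counts for lists of signalling and stress genes stand beside 20.8% early-weighted and 5.2% late-weighted of all genes. Of 21 feedback genes of Nodal, BMP and Wnt signalling 6 were early-weighted and 2 late-weighted, and the late ones were Id2, an inhibitor of DNA binding (contrast 0.21 ± 0.06), and Lefty1, an inhibitor of Nodal (0.21 ± 0.05). Id2 lost its call without replicate 2 (0.10) or 3 (0.12) at 120 min, and Lefty1 without any 1 of the 120 min libraries (0.14 to 0.15) or mock replicate 2 (0.18). Both fell far, to 5.62% and 10.8% of mock at 360 min. Skil, a repressor of SMAD signalling, fell to 18.0% with a contrast of -0.06 ± 0.04 that did not pass the test, but did so as early-weighted without replicate 2 at 120 min (-0.19), with either other choice of time steps and with factors over all half-life libraries. Of 29 genes of the ATF4 stress response 8 were early-weighted and 10 late-weighted, 2 of the latter without replicate 2 at 120 min. Of 34 pluripotency regulators 11 were early-weighted and 4 late-weighted, and Pou5f1 had 99.4% of mock left at 120 min and 68.9% at 360 min. Of 20 p53 target genes 6 were early-weighted, among them Mdm2, the ubiquitin ligase for p53 (25.7% of mock at 120 min, 7.47% at 360 min, contrast -0.53 ± 0.05). Ccng1, Gtse1 and Trp53inp1 had contrasts between -0.08 and -0.01 and did not pass the test. Gtse1 passed without replicate 2 (-0.20) or 3 (-0.21) at 120 min, and all 3 passed as early-weighted with factors over all half-life libraries (-0.20 to -0.27). With those factors the early-weighted counts were 13 of the Nodal, BMP and Wnt list, 12 of the ATF4 list, 20 of the pluripotency regulators and 17 of the p53 list, and the late-weighted ones 0, 2, 0 and 0.

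For the remaining lists the calls, to be read beside 20.8% early-weighted and 5.2% late-weighted of all genes, were as follows. Early-weighted and late-weighted calls numbered 19 and 5 of 86 cytosolic ribosomal proteins, 3 and 5 of 21 glycolysis enzymes, 4 and 1 of 22 chaperones of the endoplasmic reticulum, 3 and 0 of 31 mitosis genes, and 2 and 5 of 30 splicing regulators. For nonsense-mediated decay factors they were 3 and 2 of 18, for nuclear long noncoding RNAs 6 and 0 of 16, and for extracellular matrix genes 0 and 0 of 17. Each of the late-weighted counts was 0 with factors taken over all half-life libraries. With those factors each early-weighted count rose, to 13 for extracellular matrix genes, 28 for mitosis genes and 18 for chaperones. For extracellular matrix genes it also reached 5 with 1 library left out. Libraries of some matrix genes spread widely, for example 6162, 12580 and 16450 normalized counts of Hspg2 at 120 min, so 0 calls do not show an even course.

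**Figure D4:**
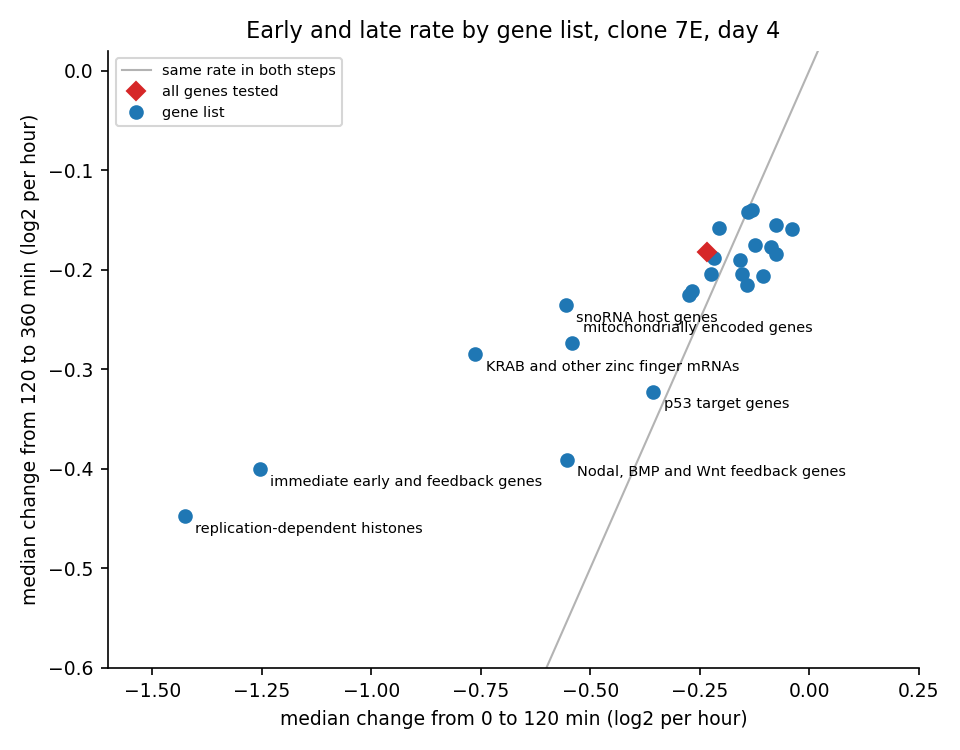
Median rate of change of each gene list from 0 to 120 min (x) and from 120 to 360 min (y), in log2 per hour. Each circle is a list, the red diamond is the median of all genes tested (-0.23 and -0.18), and on the grey line both rates are equal, with points to its left early-weighted. Histone genes lie at -1.43 and -0.45, and immediate early genes at -1.25 and -0.40.

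For mRNAs of the decay machinery itself the list medians stayed near the all-gene median. In the list of the SKI complex and exosome 3 of 22 were early-weighted and 3 late-weighted. In that of decapping, deadenylation and XRN1 the counts were 8 and 1 of 31. Of all genes 20.8% were early-weighted and 5.2% late-weighted. Median levels of these lists at 360 min were 49.2% and 38.7% of mock, against 43.9% over all genes. Single genes ranged from 9.77% to 66.3% in the first list and from 8.34% to 65.0% in the second. Of further genes that the study names, Calr and Pdia4, chaperones of the endoplasmic reticulum, had 94.4% and 93.8% of mock left at 120 min and 68.7% and 77.6% at 360 min. Ifrd1, a transcriptional coregulator, had 45.8% and 16.1% left, and the stress regulator Atf4 47.8% and 13.1%. Of these 4 Ifrd1 passed the test of shape (contrast -0.19 ± 0.05, adjusted p = 0.0173), but not without replicate 1 at 360 min (-0.14, adjusted p = 0.0829) with TMM or with an early step of 0 to 240 min. Atf4 (-0.06) passed as early-weighted without replicate 2 (-0.18, adjusted p = 0.0154) or 3 (-0.13, adjusted p = 0.0442) at 120 min. Calr (0.07) passed as late-weighted with TMM (0.12) and without replicate 1 or 2 at 360 min (both 0.11) and with either other choice of time steps. With factors over all half-life libraries Atf4 (-0.25), Calr (-0.12) and Pdia4 (-0.17) passed as early-weighted.

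The shape at day 4 was tested against that of the same clone at day 0. It was less early-weighted at day 4 in 2740 of 17417 genes (15.7%) and more so in 56 (0.322%), but the first count was 223 with each library's own ERCC ratio, 117 with TMM, 149 without replicate 2 of day 4 and 628 without replicate 3. Histone genes had the largest median difference of the lists described. Of the 59, 44 were less early-weighted and 0 more so, with a median difference of 1.11 log2 per hour, and the count was 34 to 47 under the alternatives tried. For Hist1h1a, 52.8% of mock was left at 120 min (48.8% to 58.3% over 3 libraries) and 5.79% (5.24% to 6.28%) at day 0. For Hist1h1b the levels were 16.7% and 2.02%. Hist2h3b, Hist1h2ag, Ccn1 and Spry2 had differences between -0.15 and -0.01 log2 per hour that did not pass the test. At 120 min Hist2h3b was at 0.6352% of mock at day 4 and 0.7905% at day 0, and Hist1h2ag at 1.365% and 1.063%. Both genes were near the floor at either day, so a change in their course was barely resolved.

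Against libraries of clone 5F labelled day 4, a comparison that uses the same 12 libraries, 138 of 17627 genes (0.783%) were less early-weighted in clone 7E and 6 (0.034%) more so. The first count was 0 with each library's own ERCC ratio, 2 with TMM, and 489, 0 and 1 without replicates 1, 2 and 3 of clone 7E. No histone gene was called in either direction by edgeR or DESeq2, and 1 of 59 had an unadjusted p under 0.05 with each. Hist1h1a was at 45.1% of mock at 120 min there (41.1% to 49.1%), with a difference in contrast of 0.09 ± 0.08 (SE), and Hist1h1b at 19.6% (difference -0.11 ± 0.06). In clone 5F at day 0, Hist1h1a was at 0.614% of mock at 120 min and Hist1h1b at 0.411% (2 libraries). The change between days in clone 5F was not tested. Mdm2 was more early-weighted in clone 7E at day 4 than in clone 7E at day 0 (by -0.56 ± 0.06) or clone 5F labelled day 4 (by -0.27 ± 0.06). It had 25.7% of mock left at 120 min, against 39.8% and 30.6%. Against clone 5F, 6 genes were called in that direction, 0 with own ERCC ratios and 2 and 3 without replicates 2 and 3 of clone 7E.

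Binding by crosslinking (CRAC, which maps RNA fragments crosslinked by UV to a tagged protein) was set beside shape for the 7229 mRNAs with both. The authors' pooled relative binding, a ratio that shares each mRNA's signal between SKIV2L, XRN1 and MTR4, had a median for SKIV2L of 0.188 in the 1759 early-weighted mRNAs other than histones and 0.417 in the 498 late-weighted ones, against 0.267 over all. For the 50 histone mRNAs it was 0.534. The early-weighted mRNAs thus had the lower SKIV2L share and the histone mRNAs, also early-weighted, the higher. The binding was measured in other cell lines, and pooled ratios carry no replicate error. The late-weighted class also depends on the main setting. It held 869 of all genes tested there, but 75 without replicate 2 at 120 min. With own ERCC ratios it held 84, and with factors over all half-life libraries 60. Within the 48 histone genes with at least 100 normalized counts in mock, Spearman's correlation of the SKIV2L ratio with the level at 120 min was 0.0861.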

How the data were processed

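Cells of 1 clone were treated with actinomycin D, and RNA with ERCC spike-ins added at lysis was depleted of rRNA, sequenced and, by the authors, aligned with STAR to the mm10 build and counted per Gencode gene from uniquely mapping reads. The deposited values used here are raw counts per gene and per ERCC sequence, without strand (53380 genes, 47 half-life libraries, 0 columns of per-sample values left unused). The crosslinking values are a ratio that the authors made from pooled libraries, SKIV2L, XRN1 or MTR4 counts over the sum of the 3. The authors' fitted half-lives were not used.

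Counts were scaled with DESeq2 size factors (version 1.42.0) within each time, and then by 1 spike-in factor per time based on 38 ERCC sequences (mean count over 50), after the study's recipe but on the 12 libraries alone. The test was edgeR's quasi-likelihood test (version 4.0.16, R 4.3.3) with filterByExpr (16702 genes), and Benjamini-Hochberg adjustment over all genes tested with a threshold of 0.05. It had time as a factor with 4 levels and no replicate block. Half-lives came from ln(normalized count + 1) against time. Scripts were tested on simulated data. Symbols, stop codons and UTRs came from Gencode vM21 (GRCm38), which named 53275 genes. Sequences searched for the stem-loop came from the RefSeq copy of that build. Sequences of 3′ UTRs came from Gencode transcripts, 1 per gene, the one with the longest coding sequence. No replicate pair was a repeated library, since the lowest chi-square per gene was 4.97. Alternatives were other scalings (each library's own ERCC ratio, factors over all half-life libraries, TMM), DESeq2, limma 3.58.1, other filters, other time steps, a replicate block and each library left out. 2 alternatives were added after seeing the data: totals equalised between times, and leaving out the 2 libraries with a low ratio.

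The genes and gene lists were chosen with earlier results of these data known, and the list of snoRNA host genes was corrected after its values had been seen. Named genes were the 4 members of each list with the highest mock level, genes named by the study, and, among protein-coding genes with at least 500 normalized counts in mock, an adjusted p under 0.05 and the same sign with each library left out, the 6 with the most negative and most positive shape contrast and the 5 lowest and highest at 360 min. Hist1h4n, mt-Nd5, Vldlr and Hmgcs1 were named after their values had been seen.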

Additional observations from a re-analysis of the deposited data

Results flagged for a closer look

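For 16 results the shape contrast differed between day 4 and day 0 of clone 7E by the test of the difference itself (edgeR's quasi-likelihood test, adjusted over all genes tested). A positive difference means less early-weighted at day 4, in log2 per hour. Among histone genes the differences were 1.65 ± 0.11 (SE, adjusted p = 8.07e-10) for Hist2h2bb, 1.60 ± 0.07 (adjusted p = 5.75e-13) for Hist1h1b, 1.51 ± 0.11 (adjusted p = 3.38e-09) for Hist1h1d, 1.30 ± 0.08 (adjusted p = 5.6e-10) for Hist1h1a and 0.61 ± 0.15 (adjusted p = 0.0117) for Hist1h2bk. Histone genes named above for the steepest first step, Hist2h3b and Hist1h2ag, were not among them.

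The median difference over all genes was 0.15 in the same direction, and the values below are to be read beside it. The differences were, for Ifrd1, 0.46 ± 0.08 (adjusted p = 0.000677), for Atf4, 0.44 ± 0.05 (adjusted p = 2.86e-06), for Pdia4, 0.32 ± 0.07 (adjusted p = 0.00494) and for Calr, 0.27 ± 0.04 (adjusted p = 0.000392). In the list of endoplasmic reticulum chaperones 14 of 22 genes were called and in the ATF4 list 10 of 29, but 4 and 4 with TMM, 5 and 5 with own ERCC ratios, 3 and 5 without replicate 2 of day 4 and 8 and 6 without replicate 3. Among all genes 15.7% were called as less early-weighted, 2740 of 17417. That count was 117 with TMM, 223 with own ERCC ratios, and 149 and 628 without replicates 2 and 3 of day 4. For the signalling genes Lefty1 and Skil the differences were 0.39 ± 0.09 (adjusted p = 0.0046) and 0.31 ± 0.05 (adjusted p = 0.000377), and for Ldha and Mcm3 0.22 ± 0.06 (adjusted p = 0.026) and 0.16 ± 0.05 (adjusted p = 0.0362). The p53 target genes were the ones named that moved the other way, Mdm2 by -0.56 ± 0.06 (adjusted p = 4.47e-06), Gtse1 by -0.33 ± 0.06 (adjusted p = 0.00123) and Trp53inp1 by -0.32 ± 0.07 (adjusted p = 0.00367).

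Against libraries of clone 5F labelled day 4, Skil (0.23 ± 0.05, adjusted p = 0.0303) and Mdm2 (-0.27 ± 0.06, adjusted p = 0.0289) differed by the same test. With own ERCC ratios no gene was called in either direction, so both calls were lost, and without replicate 2 of clone 7E no gene was called as less early-weighted, so that of Skil was lost. Both comparisons use the same 12 libraries, so they are not independent of each other, and each holds 1 clone per arm.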

How the results depend on the processing

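Of the single-gene results, 682 values under other settings and 799 with 1 library left out kept their direction and side of the threshold. Under other settings 18 reversed, 42 lost and 29 gained a call, and with 1 library left out 1, 39 and 19. Of the settings run, TMM alone moved a count of lower genes by over 1.5 times: it sets the typical gene to no change and gave 4299, 4753 and 4974 genes lower at 120, 240 and 360 min and 3498, 4653 and 4857 higher. Genes higher at 120 min numbered 14 with own ERCC ratios, 7 with factors over all half-life libraries, 29 with DESeq2 and 26 with a mean of at least 50 counts. At 240 min they numbered 3 with those all-library factors, 4 with DESeq2, 16 without a filter, 4 with at least 50 counts and 17 with totals equalised. At 360 min they numbered 4 with own ratios, 3 with all-library factors, 3 with DESeq2, 13 without a filter and 3 with at least 50 counts. All-library factors gave median levels of 57.6% at 120 min and 47.5% at 240 min, 8719 early-weighted and 60 late-weighted genes; own ratios gave 84 late-weighted, TMM 1977, and an early step of 0 to 240 min 1542 early-weighted and 280 late-weighted. The cause of these differences was not tested. Genes under the count filter were too shallow to test.

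Against day 0, more early-weighted genes numbered 17 with own ratios and 100 without a filter, and less early-weighted ones 223 with own ratios, 117 with TMM, 1562 without a filter and 716 with a late step of 240 to 360 min. Against clone 5F, more early-weighted genes numbered 0 with own ratios, 10 with TMM and 11 with DESeq2, and less early-weighted ones 0, 2 and 574, 44 without a filter and 20 with the late step.

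With all-library factors the contrasts of Zfp568 (-0.12), Zfp106 (-0.13), Zfp207 (-0.15), Rps3 (-0.010), mt-Co1 (-0.18), Atp5b (-0.055), Ldha (-0.0065), Calr (-0.12), Actb (-0.085), Mcm3 (-0.029), Mcm6 (-0.0033) and Pdia4 (-0.17) turned negative. That of Actb was -0.0044 to 0.15 with 1 library left out, the lowest without replicate 3 at 120 min, and that of Lefty1 -0.068 with the early step of 0 to 240 min. At 360 min TMM turned the log2 changes of P4ha1 (0.99), Ahi1 (0.999), Samd1 (1.002), Mapk3 (1.02) and Zranb3 (1.07) positive.

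Leaving out 1 library gave 8555 to 11741 genes lower and 14 to 54 higher at 120 min, 12554 to 13888 and 4 to 20 at 240 min, and 14810 to 15645 and 1 to 8 at 360 min. Median levels were 64.2% to 73.5%, 55.0% to 60.1% and 38.1% to 44.4%, the half-life 279.4 to 324.5 min, early-weighted genes 2719 to 4848 and late-weighted ones 75 to 1544 (188 without replicate 3 at 120 min, 1518 without replicate 1 at 360 min). Against day 0 the counts were 149 to 3127 less and 28 to 54 more early-weighted, and against clone 5F 0 to 489 and 2 to 5.

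No pairing by replicate number was seen in correlations of each library's deviations from the mean of its time. Between same-numbered libraries these ran from -0.695 to 0.508, and 1 of 12 libraries correlated best with its own number. Different-numbered libraries correlated at up to 0.766. Such correlations cannot exclude that same-numbered libraries shared a source. With a replicate block over these numbers, genes higher numbered 31 at 120 min and 4 at 360 min, late-weighted ones 527, and against clone 5F 11 were less and 1 more early-weighted. The block gave 9726, 13525 and 15350 genes lower, 7 higher at 240 min and 3058 early-weighted, and 1966 less and 44 more early-weighted against day 0.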

Other observations

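For RNA classes other than mRNA the counts of calls are given beside the 20.8% early-weighted and 5.2% late-weighted of all genes, with no test of a difference. Of 502 genes of the annotation class TEC, a provisional class, 153 were early-weighted and 2 late-weighted, with a median of 41.5% of mock left at 120 min and 23.3% at 360 min. Antisense RNAs (64 early-weighted and 7 late-weighted of 263) had 53.9% and 30.8% left, and lincRNAs (84 and 16 of 389) 61.9% and 37.3%, although counts without strand cannot separate an antisense RNA from its partner. Processed pseudogenes, which share sequence with their parent mRNAs and are uncertain for that reason, were early-weighted in 16 and late-weighted in 29 of 1016, with 92.7% and 56.7% left.

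Vldlr, a lipoprotein receptor, and Hmgcs1, an enzyme of sterol synthesis, were among the 44 genes late-weighted under every scaling and are described without a test, since they were picked from that list. Vldlr had 92.6% of mock left at 120 min, 41.1% at 240 min and 15.7% at 360 min. Hmgcs1 had 109.5%, 78.0% and 54.9% left, with a contrast of 0.31 ± 0.04 log2 per hour (SE).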
